A study of Mus musculus with 2 samples.

Results

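The 44 genes described here run the cell cycle and copy the genome. They were chosen by gene name, equal in the quantification tables of both libraries, by a rule that used no measured value. Earlier results of these data were known when the list was chosen. All 44 had reads in at least 1 library and 42 had reads in both, out of 18053 annotated genes with reads. They were measured by long-read RNA sequencing of total RNA from adrenal glands of male mice of the hybrid B6CASTF1/J, 4 days after birth, with no treatment. There was 1 group of 2 biological replicates, replicate 2 and replicate 1, with 1 library each and no contrast of conditions. The labels do not settle whether the libraries come from different animals: by the descriptions of the tissue, replicate 2 is male 04 and replicate 1 is male 03, but the descriptions of the libraries give male 03 for both, and both carry the same donor identifier. An SD with n = 2 below is the spread between these libraries, which may be technical. P-values therefore measure only the difference between these libraries beyond counting error. Replicate 2 held 810818 reads of mouse genes and replicate 1 held 688436.

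A cell commits to division in G1, when D-type cyclins activate the kinase CDK4 and cyclin E activates CDK2. The MCM helicase, loaded onto origins in G1, unwinds DNA in S phase, while a supply of deoxynucleotides and the sliding clamp PCNA sustain the polymerases. Cyclin B with CDK1 then drives mitosis, and the anaphase-promoting complex (APC/C) ends it by marking cyclins and other proteins for destruction. The adrenal cortex and medulla both still grow in the first days after birth.

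Gene levels are given in CPM (counts scaled to the mouse reads of the library). A long read stands for 1 transcript molecule whatever its length, so CPM was not divided by transcript length. In replicate 2 each read added 1.23 CPM, and in replicate 1 it added 1.45 CPM. A count of 0 allows up to 3 reads, which is 3.70 CPM in replicate 2 and 4.36 CPM in replicate 1. Floors and the 95% Wilson intervals below reflect counting error alone, because no molecular identifiers tell copies of a molecule apart.

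The tissue held transcripts of genes placed under every phase. Each gene was placed by its role, with the MCM, licensing, clamp and nucleotide genes under S. These labels are not measured timing, and a gene's RNA need not be limited to its phase. Together the 44 genes had 2578 reads in replicate 2 and 2161 in replicate 1, or 3180 and 3139 CPM, a ratio of 1.01. Their mean level over the libraries had a median of 56.1 CPM and ran between 2.07 CPM for Smc2 and 359 CPM for Cdk4. Only 8 genes exceeded 100 CPM, namely Cdk4, Ccnd3, Hmgb2, Mcm2, Mcm6, Mcm7, Ccnb2 and Pcna, while 6 stayed under 10 CPM. Ccnb2 did so only with a fragment of its last 2 exons counted, described below. In bulk tissue, fewer cycling cells and less RNA per cycling cell cannot be told apart.

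Genes of G2 and M took 39.6% (Wilson interval 37.8 to 41.5%) of the 44 genes' reads in replicate 2 and 34.7% (32.7 to 36.7%) in replicate 1. S-phase genes took 37.9% (36.0 to 39.7%) in replicate 2 and 37.9% (35.9 to 40.0%) in replicate 1. G1 genes took 22.5% (20.9 to 24.2%) in replicate 2 and 27.4% (25.6 to 29.3%) in replicate 1. The intervals of the S-phase share overlapped almost wholly, whereas those of G1, and those of G2 and M, did not overlap between the libraries. Leaving out 1 gene closed some of these separations for Hmgb2 and Ccnd3, and none for Ccnb2. The genes left out, Hmgb2, Ccnb2 and Ccnd3, were picked after the data were seen. Each passed the adjusted p in the library comparison below, so leaving them out was bound to narrow the gap. Without Ccnb2 the G2 and M shares were 37.0% (35.15 to 38.95%) in replicate 2 and 33.0% (31.04 to 35.05%) in replicate 1. Without Hmgb2 the G2 and M shares were 34.8% (32.9 to 36.7%) in replicate 2 and 31.4% (29.4 to 33.4%) in replicate 1, and the intervals overlapped. The G1 shares became 24.3% (22.6 to 26.1%) and 28.8% (26.9 to 30.8%), and their intervals still did not overlap. Without Ccnd3 the G1 shares were 17.8% (16.3 to 19.4%) in replicate 2 and 20.4% (18.6 to 22.2%) in replicate 1, and the intervals of both G1 and G2 and M overlapped.

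**Figure D1:**
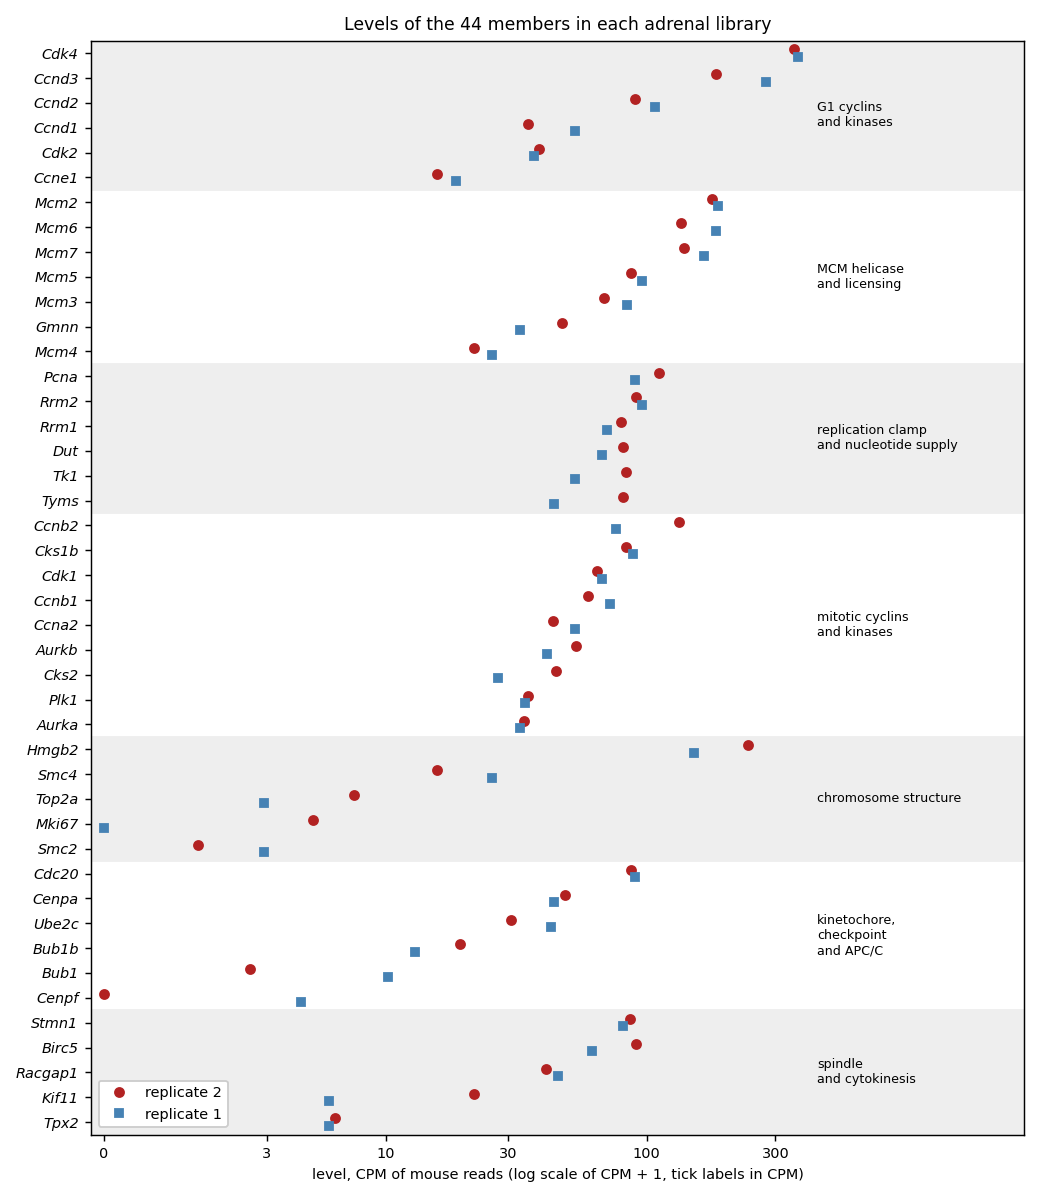
Level of each of the 44 genes in replicate 2 (circles) and replicate 1 (squares), in CPM on a log scale of CPM + 1, with genes arranged in 7 groups by role. Cdk4 stands highest at 353 CPM in replicate 2 and 365 CPM in replicate 1, and Mki67 and Cenpf each have a library at 0.

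The G1 group was led by Cdk4, the kinase partner of the D-type cyclins. It had 286 reads in replicate 2 and 251 in replicate 1, a mean of 359 ± 8.39 CPM (SD, n = 2). Of the D-type cyclins, Ccnd3 had 147 reads (181 CPM) in replicate 2 and 191 (277 CPM) in replicate 1. Ccnd2 had 73 and 74 reads in replicates 2 and 1, a mean of 98.8 ± 12.3 CPM, and Ccnd1 had 29 and 37, a mean of 44.8 ± 12.7 CPM. The order Ccnd3, Ccnd2, Ccnd1 held in both libraries. Cdk2, the partner of cyclins E and A, averaged 38.6 ± 1.20 CPM with 32 and 26 reads. Ccne1, which encodes cyclin E1, was the lowest of the group with 13 reads in each library, a mean of 17.5 ± 2.02 CPM.

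Cdk2 was made as a pair of annotated isoforms in near-equal amounts. Cdk2-201 had 13 reads in replicate 2 and 10 in replicate 1, and Cdk2-202 had 10 and 9. That is 54.2% and 41.7% of the gene's spliced full-chain reads in replicate 2, and 43.5% and 39.1% in replicate 1. The forms differ by 1 coding exon of 144 bases, present in Cdk2-202 alone (mm10 chr10:128699976-128700119, minus strand). With so few reads the intervals of the leading share, 35.1 to 72.1% in replicate 2 and 25.6 to 63.2% in replicate 1, hold the even split in both libraries.

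Cdk4 gave a shorter form that joins exon 1 to exon 3. It had 17 of the gene's 286 reads in replicate 2 (5.94%, 3.74 to 9.31%) and 3 of 251 in replicate 1 (1.20%, 0.407 to 3.45%). The missing exon 2 (chr10:127064220-127064453, plus strand) holds 218 coding bases, the start codon among them. The first 60 coding bases of that exon are shown because the shorter form lacks them, with the start codon in capitals.
Cdk4 exon 2, chr10:127064236-127064295, plus strand: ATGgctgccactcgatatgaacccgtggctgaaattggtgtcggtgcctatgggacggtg
The complete form Cdk4-201 held 86.1% of spliced full-chain reads in replicate 2 and 93.3% in replicate 1, a difference that did not pass the test described below.

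Summed over both libraries, the D-type cyclins had the most single-exon reads of the class called genomic, which match no spliced model. Ccnd1 had 13 such reads of 29 in replicate 2 and 14 of 37 in replicate 1, and Ccnd2 had 19 of 73 and 11 of 74. Ccnd3 had 15 of 147 and 18 of 191, or 10.2% and 9.42%. As a share of the gene's reads this is not particular to these cyclins. Gmnn stood at 38.5% in replicate 2 and 17.4% in replicate 1, and the scarce Top2a at 66.7% and 50%. Over all 44 genes the genomic share was 3.49% in replicate 2 and 3.15% in replicate 1, against 6.59% and 4.56% over all annotated genes.

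Among the S-phase genes, the 6 subunits of the MCM helicase were present at unequal levels. Mcm2 had 142 reads in replicate 2 and 127 in replicate 1 (180 ± 6.61 CPM), Mcm6 had 109 and 124 (157 ± 32.3 CPM) and Mcm7 had 112 in each (150 ± 17.4 CPM). Mcm5 followed with 71 and 66 reads (91.7 ± 5.87 CPM) and Mcm3 with 56 and 58 (76.7 ± 10.7 CPM). Mcm4 was lowest with 18 reads in each library (24.2 ± 2.79 CPM), although its protein joins the others in equal amounts in the hexamer. The upper 3, the middle pair and Mcm4 formed the same steps in both libraries, while Mcm6 and Mcm7 changed places between them. Geminin, encoded by Gmnn, blocks a second round of licensing and had 39 and 23 reads, of which 15 and 4 were genomic.

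Promoter windows were searched for words known from cell cycle promoters. Windows ran 250 bases before to 50 after the start, from the RefSeq table for GRCm38.p6, and 35 of the 44 genes matched. The annotated start lay within 100 bases of the start of the gene's most-read known model for 32 of these 35, the exceptions being Mcm7, Pcna and Cenpa. The words were the E2F words TTTCCCGC, TTTCGCGC, TTTGCCGC and TTTGGCGC, the CCAAT box bound by NF-Y, and TTTGAA, the core of the cell cycle homology region (CHR) bound by the MuvB complexes. Each was searched on both strands, and E2F words may overlap one another. A match describes letters and is not shown to be a binding site.

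An E2F word occurred in 4 of the 5 MCM windows, those of Mcm3, Mcm5, Mcm6 and Mcm7, against 3.96% of the 8192 windows of tested genes and 2.26% of all 32851. A CCAAT word occurred in all 5, against 38.2% of the windows of tested genes. The windows of Mcm3 and Mcm6 are shown because they carry both kinds of word close to the start, with E2F and CCAAT words in capitals.
Mcm3 promoter, chr1:20820263-20820562, minus strand: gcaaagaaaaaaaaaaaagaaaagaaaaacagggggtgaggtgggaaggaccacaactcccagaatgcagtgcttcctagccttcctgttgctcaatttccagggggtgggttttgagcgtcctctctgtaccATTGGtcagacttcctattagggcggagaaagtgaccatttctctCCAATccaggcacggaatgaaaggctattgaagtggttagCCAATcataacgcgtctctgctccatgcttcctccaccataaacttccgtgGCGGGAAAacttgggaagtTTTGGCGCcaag
Mcm6 promoter, chr1:128359656-128359955, minus strand: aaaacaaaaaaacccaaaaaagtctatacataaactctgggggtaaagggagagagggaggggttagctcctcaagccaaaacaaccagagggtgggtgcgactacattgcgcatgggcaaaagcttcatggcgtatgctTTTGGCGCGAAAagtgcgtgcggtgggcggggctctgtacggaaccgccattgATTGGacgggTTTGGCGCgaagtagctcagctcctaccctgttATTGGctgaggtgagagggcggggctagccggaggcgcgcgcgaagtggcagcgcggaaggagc
None of the 6 windows of the clamp and nucleotide genes held these E2F words, and 3 of them held a CCAAT word.

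**Figure D2:**
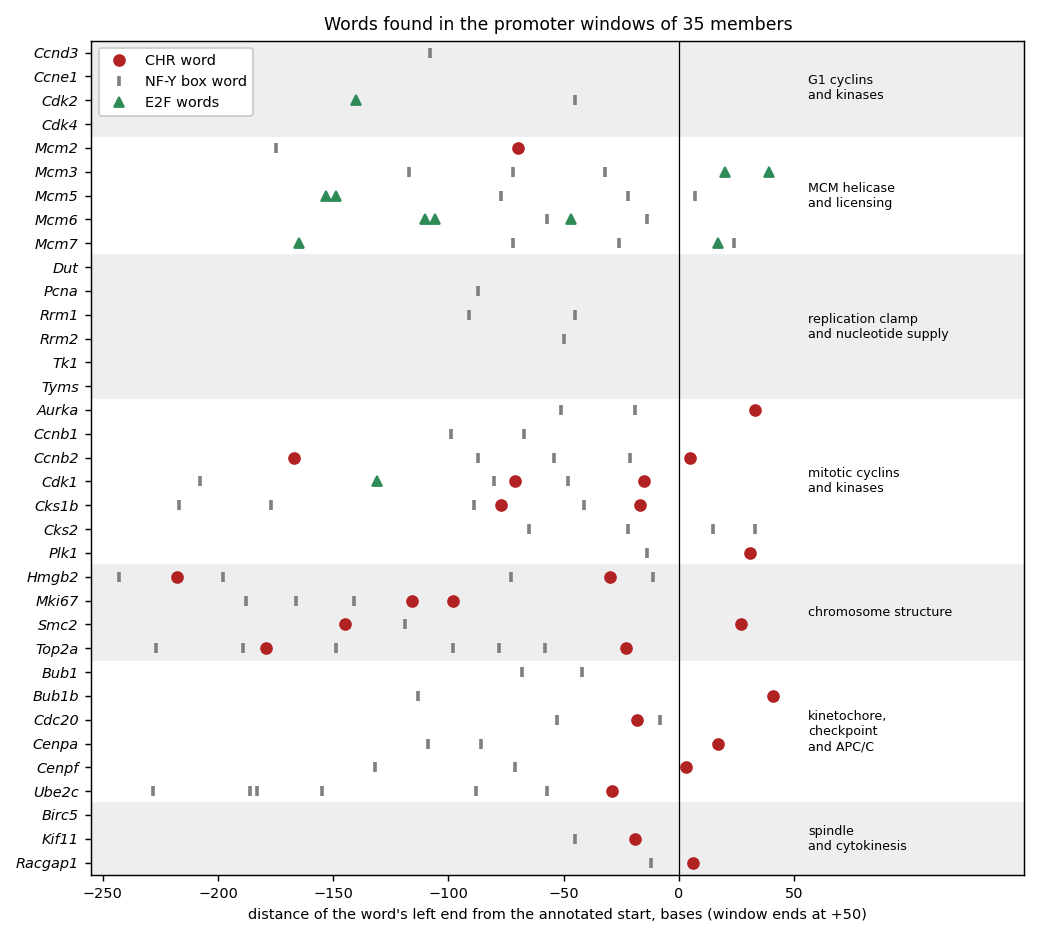
Position of each word in the windows of 35 genes, in bases from the annotated start, with circles for the CHR word, bars for the NF-Y box and triangles for the E2F words. CHR words fill 16 of the 20 windows of G2 and M genes and 1 of the 15 others, that of Mcm2, while E2F words mark 4 of 5 MCM windows.

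Most MCM genes used a single complete isoform. The leading model held 95.9% and 92.2% of spliced full-chain reads of Mcm2 in replicates 2 and 1, and 90.6% and 91.5% of those of Mcm6. Mcm5 was the exception, with Mcm5-201 at 32 and 26 reads and Mcm5-205 at 20 and 22. Their coding sequences have the same length, 2202 bases. Mcm5-205 starts inside the first intron of Mcm5-201 with an exon that runs unbroken into its second exon, and ends its last exon earlier. Mcm7 gave 9 reads in each library of a new combination of known splice sites whose first exon lies at chr5:138170810-138171017 on the minus strand.

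The clamp and nucleotide genes lay close together, between 63.2 CPM for Tyms and 100.5 CPM for Pcna. Pcna, the sliding clamp, had 90 reads in replicate 2 and 62 in replicate 1. Rrm2 and Rrm1, the subunits of ribonucleotide reductase, had 74 and 66 reads and 65 and 49 reads. Tk1, thymidine kinase, had 68 and 37, and Tyms, thymidylate synthase, had 66 and 31. Dut, the dUTPase that keeps uracil out of DNA, had 66 and 47. The order of Rrm1, Dut, Tk1 and Tyms could not be set apart from their spread, the SDs being 6.36, 9.28, 21.3 and 25.7 CPM.

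Reads of Dut fell into 3 main models, 1 of them not annotated. Dut-201 had 29 reads in replicate 2 and 18 in replicate 1, and Dut-202, which starts upstream and carries a longer coding sequence of 600 against 486 bases, had 12 and 10. The new form had 15 and 14 reads, more than Dut-202 in both libraries, and made up 22.7% (14.3 to 34.2%) and 29.8% (18.7 to 43.98%) of the gene's reads. It shares the first exon of Dut-202 but enters the next exon at chr2:125247750, which is 14 bases upstream of the annotated acceptor at chr2:125247764. The 60 bases around both acceptors are shown with the 14 gained bases in capitals.
Dut acceptors, chr2:125247736-125247795, plus strand: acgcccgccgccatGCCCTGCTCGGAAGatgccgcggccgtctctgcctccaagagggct
The annotated acceptor follows the letters AG and the new one follows AT in the reference, and the first gained base is the G of the start codon of Dut-201. The mice are hybrids and the reads were mapped to mm10, and CAST/EiJ sequence was not used here. Whether misalignment or a CAST/EiJ allele gave this junction was not tested.

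Of the G2 and M group, the cyclins and kinases had moderate and rather even levels. Ccnb2, cyclin B2, led with 107 reads in replicate 2 and 53 in replicate 1 (104 ± 38.9 CPM). Of these, 64 and 24 belonged to a fragment of its last 2 exons, described below. Its complete model Ccnb2-201 had 38 and 26 reads, fewer than the 45 and 45 of Ccnb1-201, so its lead rested on the fragment. Cks1b and Cks2, small adaptor subunits of cyclin-dependent kinases, had 68 and 61 reads (86.2 ± 3.35 CPM) and 37 and 19 (36.6 ± 12.7 CPM). Cdk1 had 53 and 47 (66.8 ± 2.05 CPM), Ccnb1 had 49 and 50 (66.5 ± 8.62 CPM) and Ccna2, cyclin A2, had 36 and 37 (49.1 ± 6.61 CPM). The mitotic kinases stood at 48.2 ± 8.59 CPM for Aurkb, 35.3 ± 0.640 CPM for Plk1 and 34.0 ± 0.795 CPM for Aurka. Cdk1 and Ccnb1, whose proteins form the mitosis-promoting kinase, did not differ beyond their spread.

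The chromosome structure group held both the third highest gene and some of the lowest. Hmgb2, a chromatin protein that bends DNA, had 192 reads in replicate 2 and 103 in replicate 1 (193 ± 61.7 CPM). Smc4, a condensin subunit, had 13 and 18 (21.1 ± 7.15 CPM) and its partner Smc2 had 1 and 2. Top2a, the topoisomerase that untangles sister chromatids, had 6 and 2 reads, and Mki67, the proliferation antigen Ki-67, had 4 and 0. The 0 of Mki67 in replicate 1 allows up to 4.36 CPM, close to its 4.93 CPM in replicate 2, so no difference was detectable at this depth.

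Kinetochore and APC/C genes ran between Cdc20 at 88.8 ± 1.76 CPM and Cenpf at 0 and 3 reads. Cdc20, the activator of the APC/C, had 71 reads in replicate 2 and 62 in replicate 1. Cenpa, the histone variant that marks the centromere, had 40 and 31 (47.2 ± 3.04 CPM). Ube2c, the ubiquitin carrier of the APC/C, had 25 and 30, and the checkpoint genes Bub1b and Bub1 had 16 and 9 reads and 2 and 7. Among spindle and cytokinesis genes, Stmn1, which destabilises microtubules, had 70 and 56 (83.8 ± 3.53 CPM). Birc5, or survivin of the chromosomal passenger complex, had 74 and 43, and Racgap1, which acts in the central spindle, had 34 and 32. Kif11, the bipolar spindle motor, had 18 and 4, and Tpx2, an activator of Aurora A, had 5 and 4.

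The CHR word occurred in 16 of the 20 windows of G2 and M genes, against 11.2% of the windows of tested genes and 17.9% of all windows. All 16 also held a CCAAT word, and the pair occurred together in 4.54% of the windows of tested genes. Of the 11 S-phase windows 1 held the CHR word, that of Mcm2, and of the 4 G1 windows none did. The CHR word nearest the start lay at a median of base -6, with a range of -98 to 41. The windows of Ccnb1, Cks2, Bub1 and Birc5 held no TTTGAA, which says only that these letters are not there. Those of Ccnb2, Cdk1 and Top2a are shown for the repeated CCAAT words upstream of a CHR word near the start, both kinds in capitals.
Ccnb2 promoter, chr9:70421505-70421804, minus strand: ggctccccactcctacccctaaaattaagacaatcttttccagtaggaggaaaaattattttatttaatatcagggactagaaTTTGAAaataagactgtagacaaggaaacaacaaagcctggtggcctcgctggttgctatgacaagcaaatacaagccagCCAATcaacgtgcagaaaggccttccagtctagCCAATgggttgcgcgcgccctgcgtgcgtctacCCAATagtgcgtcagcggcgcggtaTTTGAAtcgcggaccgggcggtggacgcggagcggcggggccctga
Cdk1 promoter, chr10:69352863-69353162, minus strand: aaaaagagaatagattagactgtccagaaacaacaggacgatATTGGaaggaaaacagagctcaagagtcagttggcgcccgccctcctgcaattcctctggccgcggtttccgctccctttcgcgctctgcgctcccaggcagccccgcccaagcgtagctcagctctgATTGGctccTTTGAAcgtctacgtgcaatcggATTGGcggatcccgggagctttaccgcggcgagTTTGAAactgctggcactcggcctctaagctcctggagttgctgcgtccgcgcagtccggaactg
Top2a promoter, chr11:99024140-99024439, minus strand: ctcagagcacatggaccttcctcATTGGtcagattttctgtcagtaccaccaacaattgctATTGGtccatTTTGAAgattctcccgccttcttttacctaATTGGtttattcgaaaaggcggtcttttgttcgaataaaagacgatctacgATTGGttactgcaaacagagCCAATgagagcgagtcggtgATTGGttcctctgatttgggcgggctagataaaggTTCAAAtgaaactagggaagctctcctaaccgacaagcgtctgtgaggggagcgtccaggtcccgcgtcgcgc
Genes with the same pair of words differed widely in level, Top2a averaging 5.15 CPM and Ccnb2 104 CPM. They also differ in length, 5221 and 1531 bases. Of the Top2a reads, 4 of 6 in replicate 2 and 1 of 2 in replicate 1 were genomic. Of the Ccnb2 reads, 64 of 107 and 24 of 53 were a fragment of its last 2 exons. Whether the words bear on level was not tested.

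Cenpa, like Cdk2, was split between annotated isoforms. Cenpa-205 had 19 reads in replicate 2 and 13 in replicate 1, and Cenpa-202 had 17 and 12. Cenpa-202 includes an extra exon of 137 bases (chr5:30669692-30669828, plus strand), in which its annotated coding sequence ends after 126 bases in all, against 402 in Cenpa-205. Cdk2, Mcm5, Cenpa and Dut were the 4 genes, of 30 tested, whose leading model held under 60% of spliced full-chain reads in both libraries, against 691 of 4713 genes overall. In 19 of the 30 it held at least 80% in both.

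Hmgb2 and Birc5 also gave forms that are not annotated. In Hmgb2 a new acceptor 4 bases downstream of the annotated one, after the letters AG and 20 bases before the start codon, was used by 28 of 192 reads in replicate 2 (14.6%, 10.3 to 20.3%) and 15 of 103 in replicate 1 (14.6%, 9.03 to 22.6%). In Birc5, exon 2 was skipped in 6 of 74 reads in replicate 2 (8.11%, 3.77 to 16.6%) and 8 of 43 in replicate 1 (18.6%, 9.74 to 32.6%). The skipped exon (chr11:117849754-117849863, plus strand) is coding throughout and is shown because its 110 bases are absent from that form.
Birc5 exon 2: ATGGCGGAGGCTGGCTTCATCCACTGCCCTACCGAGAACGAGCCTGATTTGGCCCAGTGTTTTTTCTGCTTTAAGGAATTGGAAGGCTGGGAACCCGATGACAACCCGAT
Its length is not a multiple of 3. The Hmgb2 shares were nearly equal between the libraries, and the Birc5 intervals overlapped.

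**Figure D3:**
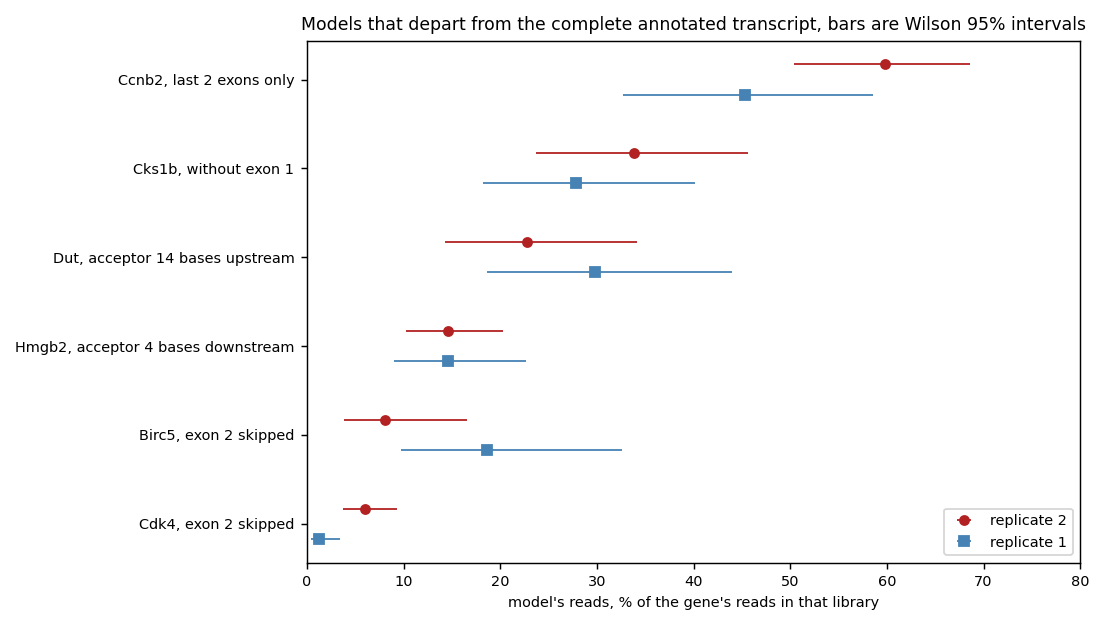
Share of each gene's reads, in percent, in 6 models that depart from the complete annotated transcript, for replicate 2 (circles) and replicate 1 (squares), with 95% Wilson intervals. The Ccnb2 fragment reaches 59.8% in replicate 2 and 45.3% in replicate 1, and only the Cdk4 form has intervals that do not overlap.

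Reads were also sorted by whether they covered a whole annotated chain of introns (complete) or part of one (incomplete). Of complete plus incomplete reads, 88.7% in replicate 2 and 91.1% in replicate 1 were complete for the 44 genes, against 87.0% and 88.6% for all annotated genes. Per gene the median was 92.8% and 95.0% over the 30 genes that had 20 or more such reads in both libraries, against 93.3% and 94.9% over 4614 genes. Most incomplete reads lacked the 5′ end, 88.4% in replicate 2 and 86.5% in replicate 1, against 68.1% and 67.1% of all incomplete reads. Of these 228 and 148 reads of the 44 genes, Ccnb2 gave 65 and 24 and Cks1b gave 23 and 17, so those genes weigh heavily in the share. None of the 30 genes was called as different between the libraries (two-sided Fisher's exact test, adjusted p under 0.05 and 10 points or more), where 1.89% of all genes were called. None reached an unadjusted p of 0.05 either, against 8.69% of all genes.

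Ccnb2 stood lowest in completeness. Only 38 of 104 such reads in replicate 2 (36.5%) and 26 of 50 in replicate 1 (52.0%) were complete. Of the gene's incomplete reads, 64 and 24 belonged to a single model of 449 bases made of the last 2 of 9 exons (chr9:70407692-70409390, minus strand). Its first exon is exon 8, shown here because every such read lies within this exon and the next.
Ccnb2 exon 8, chr9:70409280-70409390, minus strand: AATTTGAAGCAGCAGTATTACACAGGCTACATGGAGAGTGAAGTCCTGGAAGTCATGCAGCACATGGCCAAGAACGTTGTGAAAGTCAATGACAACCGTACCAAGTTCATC
Model ends in the deposited annotation fall on the annotated exon boundary, and where the reads themselves began was not given in the files used. Exons 8 and 9 carry 111 and 108 of the 1194 coding bases.

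Cks1b was next, with 42 of 65 reads complete in replicate 2 (64.6%) and 42 of 59 in replicate 1 (71.2%). Of the rest, 23 and 17 reads formed a single model of exons 2 and 3, without the exon that holds the start codon. Every other tested gene averaged at least 82.6% complete, the value of Mcm2. Cenpa, with 38 of 38 reads in replicate 2 and 28 of 28 in replicate 1, and Aurkb, with 42 of 42 and 25 of 25, were complete in every such read.

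**Figure D4:**
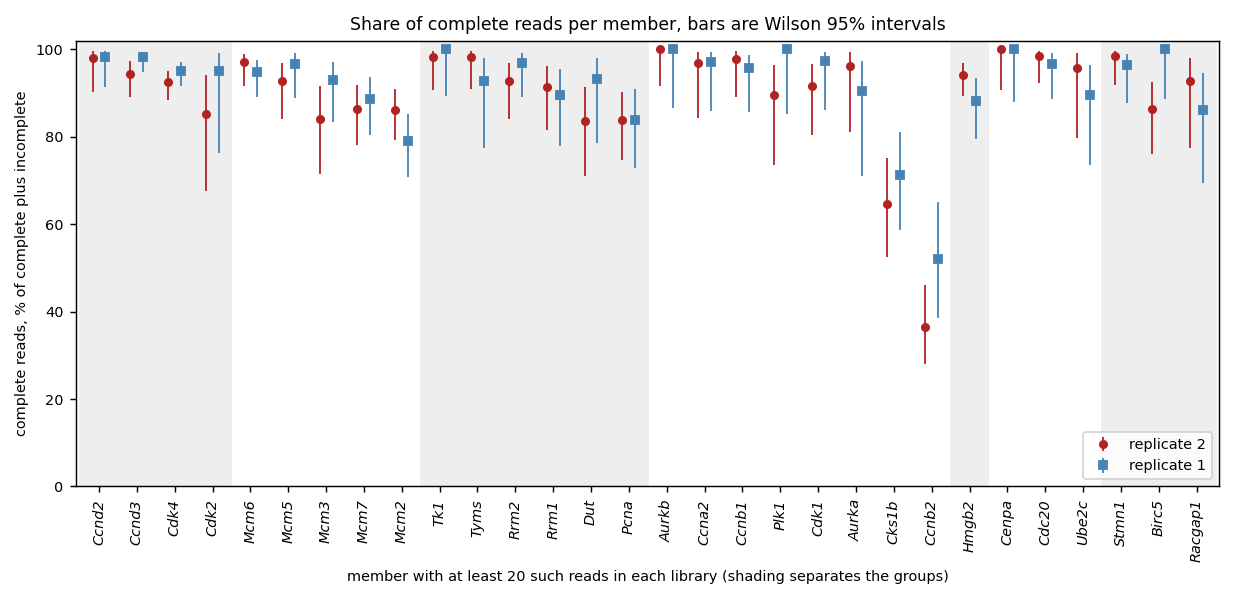
Complete reads as a percentage of complete plus incomplete reads for 30 genes in replicate 2 (circles) and replicate 1 (squares), with 95% Wilson intervals and shading between groups. Ccnb2 at 36.5% and 52.0% and Cks1b at 64.6% and 71.2% lie below all others.

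Most of the scarcest genes had long transcripts. Taking the annotated model with the longest coding sequence, the 6 genes of 4500 bases and over had a median of 3.81 CPM, against 6.39 CPM for 3449 annotated genes of that length with reads. Among these long cell cycle genes, Mki67, Cenpf, Smc2 and Top2a were 4 of the 6 with a mean under 10 CPM, while Kif11, at 22.2 CPM in replicate 2 and 5.81 CPM in replicate 1, and Ccnd2, at a mean of 98.8 CPM, were higher. The other 2 genes under 10 CPM were shorter, Tpx2 with 4365 bases and 5.99 CPM and Bub1 with 3421 bases and 6.32 CPM. The 9 genes under 1500 bases had a median of 68.8 CPM, against 4.86 CPM for 4601 annotated genes of that length with reads. All 9 had the 20 reads needed for the library comparison, and the 1855 genes of that length that did had a median of 74.0 CPM. Across the 44 genes log2 CPM and length had a Spearman rho of -0.39, a description over genes that share the same libraries. Of the 4 Mki67 reads in replicate 2, 3 were a fragment of 1679 bases at the 3′ end of a transcript of 10061 bases. Against the length of the most-read known model, the complete share had a rho of -0.03 among the 30 tested genes and -0.28 over 4590 genes. Only 1 of the 30, Ccnd2, was of 4500 bases and over. Mki67, Cenpf, Smc2, Top2a and Kif11 had too few reads, so the 30 genes say little about completeness of long transcripts. The part of length in these low levels was not tested.

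The libraries were then compared gene by gene. None of the 38 genes with at least 20 reads in all was called, that is, had an adjusted p under 0.05 and differed by 1 or more on the log2 scale (two-sided Fisher's exact test with Benjamini-Hochberg adjustment over 8276 genes), where 3.23% of all tested genes were called, 2.26% as higher and 0.967% as lower in replicate 2. On the adjusted p alone 3 of 38 passed, against 7.93% of all genes, 2 of them higher (3.83% of all genes) and 1 lower (4.1%), and 7 of 38 had an unadjusted p under 0.05, against 19.2%. The median log2 ratio of replicate 2 over replicate 1 was -0.04 for these genes and -0.10 for all tested genes. Ratios above 0 numbered 18 of 38 (47.4%), against 41.2% of all tested genes, and 20 were below.

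Hmgb2 was higher in replicate 2, at 237 CPM against 150 CPM in replicate 1, a log2 ratio of 0.66 ± 0.18 (counting SE, adjusted p = 0.00335, Fisher's exact test). Ccnb2 was higher too, at 132 CPM in replicate 2 and 77.0 CPM in replicate 1 (log2 ratio 0.77 ± 0.24, adjusted p = 0.0189). With known complete models alone its log2 ratio was 0.31 and the adjusted p was 0.731. The complete share of Ccnb2, 36.5% in replicate 2 and 52.0% in replicate 1, was not called as different (adjusted p = 0.703, Fisher's exact test). The fragment of exons 8 and 9 had 64 reads in replicate 2 and 24 in replicate 1, against 38 and 26 for Ccnb2-201. With 104 and 50 complete plus incomplete reads, the share test cannot decide how the surplus divides between them. Ccnd3 was lower, at 181 CPM in replicate 2 and 277 CPM in replicate 1 (log2 ratio -0.61 ± 0.16, adjusted p = 0.00252). Tyms reached 81.4 CPM in replicate 2, against 45.0 CPM in replicate 1, but missed the threshold (log2 ratio 0.85 ± 0.31, adjusted p = 0.0649), and with TMM scaling it passed at 0.0429. The largest ratio, 1.85 ± 0.80 for Kif11, rested on 18 and 4 reads and had an adjusted p of 0.0919.

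**Figure D5:**
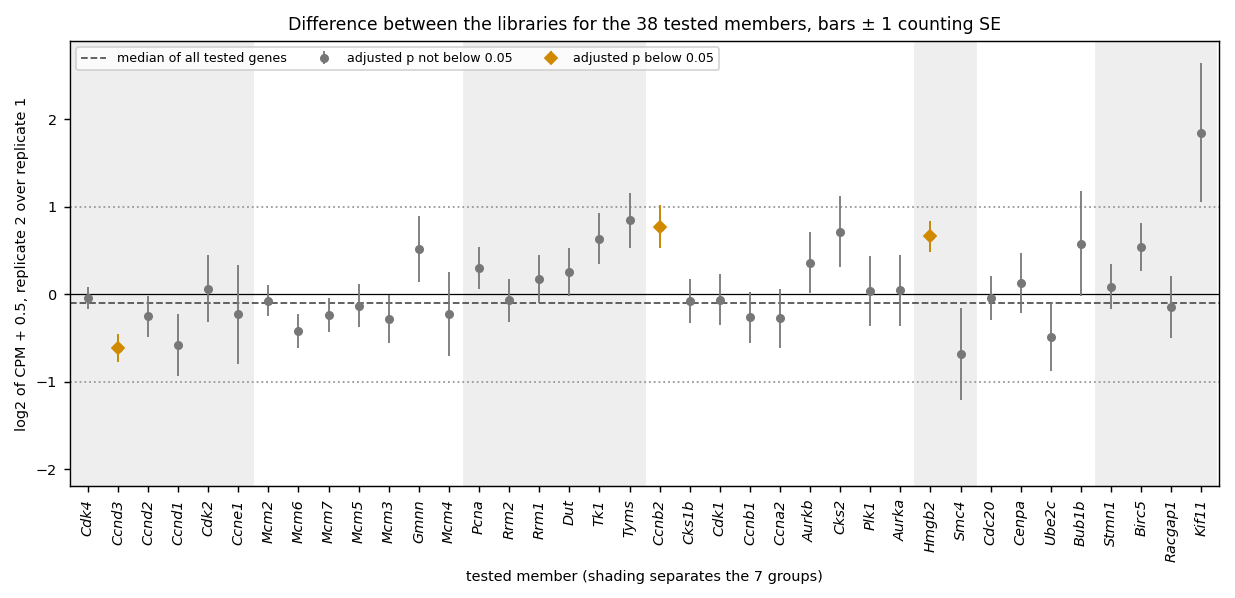
Log2 ratio of replicate 2 over replicate 1, from CPM + 0.5, for 38 genes in their groups, with bars of 1 counting SE, a dashed line at the median of all tested genes (-0.10) and dotted lines at 1 and -1. Diamonds mark Hmgb2 and Ccnb2 above 0 and Ccnd3 below 0, the 3 genes past the adjusted p, none of them beyond a dotted line.

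By role, the sums went in different directions. The G1 group came to 715 CPM in replicate 2, against 860 CPM in replicate 1 (ratio 0.832), and the MCM and licensing group to 675 and 767 CPM (0.880). The clamp and nucleotide group came to 529 CPM in replicate 2, against 424 CPM in replicate 1 (1.25). Among G2 and M groups the ratio was 1.12 for cyclins and kinases, 1.47 for chromosome structure, 0.921 for kinetochore and APC/C and 1.23 for spindle and cytokinesis. Genes above a ratio of 1 were 1 of 6 for G1 and 1 of 7 for MCM and licensing. They were 5 of 6 for clamp and nucleotide, all but Rrm2. For the G2 and M groups, in the same order, they were 5 of 9, 3 of 5, 2 of 6 and 4 of 5. These counts include genes too scarce to test. Of all tested genes 41.2% lay above a ratio of 1. Together, G2 and M genes stood at 1260 CPM in replicate 2, against 1088 CPM in replicate 1 (1.16), which became 1.09 without Hmgb2 and 1.12 without Ccnb2. With 1 library on each side these sums carry no test.

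The libraries also differed in other tissues' transcripts. The 10 liver markers came to 19848 CPM in replicate 2, against 504 CPM in replicate 1, led by Trf and Ahsg, and all 9 tested were called, with Apob at 1 read and 0. Red blood cell markers summed to 7511 and 3681 CPM, led by Hba-a1 and Hbb-bs, with Ahsp at 0 in both. Stroma markers, led by Col3a1 and Col1a1, summed to 2791 and 1684 CPM. Cortex markers came to 31226 CPM in replicate 2, against 45794 CPM in replicate 1, and chromaffin markers to 9355 and 12579 CPM, led by Cyp21a1 and Cyp11a1 and by Chga and Chgb. Endothelium (701 and 760 CPM), macrophage (279 and 311 CPM) and glia markers (90.0 and 47.9 CPM) were far lower. Beyond the liver list, genes called higher in replicate 2 were Hba-a2, Hbb-bs and Alas2, 3 of 5 tested red blood cell markers, and Col1a1, 1 of 4 tested stroma markers. Pecam1, 1 of 5 tested endothelium markers, was called lower (log2 ratio -1.42, adjusted p = 0.00965, Fisher's exact test), while Kdr of the same list had a log2 ratio of 1.92 that missed the threshold (adjusted p = 0.0655). No cortex, chromaffin, glia or macrophage marker was called, although 5 of 6 cortex and 4 of 8 chromaffin markers passed the adjusted p alone, all lower in replicate 2. The part of these other cell types in the ratios of cell cycle genes was not tested.

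The wider machinery was read from lists of genes in the same pathways. Of 152 further genes in 8 lists, 96 had enough reads to test, none was called (3.23% of all tested genes were) and 1 passed the adjusted p alone (7.93% of all tested genes did). The lists taken up below are read against the same 7.93%, which in lists of this size comes to few genes or none. The gene that passed was Cdkn1c, the imprinted CDK inhibitor p57, with 2875 reads (3546 CPM) in replicate 2 and 2957 reads (4295 CPM) in replicate 1 (log2 ratio -0.28, adjusted p = 2.2e-11). Its reads exceeded those of all 44 cell cycle genes together in both libraries. The other CDK inhibitors were far lower, with Cdkn2c at 39 reads in each, Cdkn2d at 32 and 37, Cdkn1a at 9 and 5 and Cdkn1b, or p27, at 3 and 1. At an unadjusted p under 0.05, 11 of the 96 passed (11.5%), against 19.2% of all tested genes.

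Of the transcriptional regulators, E2f4 had 92 and 89 reads in replicates 2 and 1, its partner Tfdp1 had 90 and 84, and E2f1 had 63 and 62. None of 11 tested genes of the Rb, E2F and MuvB list passed. Foxm1 and Mybl2, which act on CHR promoters with the MuvB complex, had 15 and 12 reads and 12 and 8. For origins, Orc3 (61 and 48), the loading factor Cdt1 (39 and 35) and Gins4 (35 and 32) were the most abundant, and none of 9 passed. For polymerases and the fork, the most abundant were Rfc2 (96 and 85), Pold2 (77 and 89) and Rpa3 (104 and 58), and none of 24 passed, while Pola1 and Clspn had no read in either library.

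For the kinetochore and spindle, Zwint (238 and 232 reads in replicates 2 and 1), Bub3 (145 and 137) and Cdca8 (57 and 54) were the most abundant, none of 22 passed and Kif15 had no read. For condensin, cohesin and separase these were Ncaph2 (182 and 186), Pttg1 or securin (76 and 53) and Smc1a (22 and 22), with none of 7 passing. The APC/C list came to 1531 CPM in replicate 2, against 1530 CPM in replicate 1, led by Anapc5 (185 and 184), its activator gene Fzr1 (137 and 130) and Anapc13 (146 and 108), and none of 15 passed. The near-equal sum hides log2 ratios that ran from -0.61 to 0.86 over these 15. An unadjusted p under 0.05 (Fisher's exact test) was reached by 5 of the 15, against 19.2% of all tested genes. Of the other cyclins, kinases and phosphatases, Pkmyt1 (40 and 34), Ccnf (20 and 18) and Cdc25b (18 and 16) led, and none of 5 passed.

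Use of the leading isoform was compared last. None of the 30 genes with at least 20 spliced full-chain reads in each library was called (two-sided Fisher's exact test, adjusted p under 0.05 and 10 points or more), where 0.191% of 4713 genes were called. At an unadjusted p under 0.05 there were 2 of 30, Cdk4 and Rrm1, against 5.83% of all genes. Rrm1-201 held 90.0% of spliced full-chain reads in replicate 2 and 100% in replicate 1 (adjusted p = 0.797, Fisher's exact test). The adjusted p of Cdk4 was 0.533.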

How the data were processed

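The authors deposited, for each library, a table of unnormalized counts: the long reads assigned to each transcript model, with models of 0 reads not listed. Per the labels and the file descriptions deposited with them, reads were aligned to mm10 with the GENCODE mouse release 21 primary annotation. Per the file headers, models fall into known (complete), incomplete, genomic, antisense and intergenic classes and into new ones, with known splice sites newly combined or a site not annotated. Aligner, tool versions, filters and whether counting used strand: not given in the sources used here. No read of the opposite strand carried the introns of any of the 44 genes.

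Reads were summed per gene and scaled to mouse reads, with spike-ins left out (832552 reads in all in replicate 2 and 707726 in replicate 1). Libraries were compared per gene with two-sided Fisher's exact tests (SciPy 1.17.1) and Benjamini-Hochberg adjustment, for genes whose reads in both libraries came to 20 or more, with 0.5 CPM added before the log2 ratio. Shares of complete reads and of the most-read known model used at least 20 such reads in each library. A call required the adjusted p to be under 0.05 and the difference to reach 1 on the log2 scale or, for shares, 10 points. TMM factors came from edgeR 4.0.16 and size factors from DESeq2 1.42.0, as alternatives. The tests were checked on simulated data. New models were matched between libraries by intron chain.

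Genes named were the 44, the 3 most abundant and any called gene of each pathway list, the 2 most abundant of each marker list, known isoforms with at least 20% and new models with at least 3 reads in each library. Foxm1, Mybl2, Cdkn1a, Cdkn1b, Apob, Ahsp, Hba-a2, Alas2, Pecam1, Kdr and genes without reads were named after their values were seen. The members and lists were chosen with earlier results of these data known.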

Additional observations from a re-analysis of the deposited data

How the results depend on the processing

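None of the 44 genes was called between the libraries under any of the 9 alternatives of scaling, read minimum, pseudocount or model class. Past the adjusted p alone there were between 2 and 4, Ccnb2 dropping out with known models alone and Tyms entering with TMM, DESeq2's size factors or at least 50 reads. Over all genes the called number was 161 with at least 50 reads, against 267. Higher against lower calls were 187 and 80, and 211 and 45 with DESeq2's size factors, which put the median log2 ratio of all genes at 0.01 in place of -0.10. In the pathway lists 2 genes passed with TMM and 3 with DESeq2's size factors, against 1. Summed levels of all 44 genes were 3054 CPM without genomic models and 2524 CPM with known models alone, against 3159 CPM. Known models alone gave 647 CPM for G1, 970 for S and 907 for G2 and M, against 788, 1197 and 1174, and S without genomic models gave 1175 CPM. Leaving out 1 replicate gave 3139 to 3180 CPM for all 44 genes, 715 to 860 for G1, 1191 to 1204 for S and 1088 to 1260 for G2 and M. The sum of G2 and M was 981 CPM without Hmgb2, an alternative added after the data were seen. Shares by phase without Hmgb2, Ccnb2 or Ccnd3 were likewise added after the data were seen, and without Ccnb2 the G1 intervals, and those of G2 and M, still did not overlap. The median complete share was 91.4% with genomic reads counted as incomplete, against 94.1%, with 25 genes called in place of 87, and 92.8 to 95.0% with 1 replicate left out. For genes under 1500 bases it was 97.0 to 98.2% with 1 replicate left out, against 95.3%. With known models alone in the total, 2 genes were called for isoform usage in place of 9. No gene among the 44 was called for either share under these alternatives. The causes were not tested. No paired analysis was possible because there is 1 group. Depth limits genes of few reads: 6 of the 44 had too few for the library comparison and 14 for the shares.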

Other observations

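The annotated antisense gene at the Ccnd2 locus, Gm43126, had 67 reads in replicate 2 and 34 in replicate 1, against 73 and 74 for Ccnd2 itself. Of the processed copies and relatives named after members (Ccnb1-ps, Ccnb2-ps, Ccnd3-ps, Cks1brt, Pcna-ps1, Pcna-ps2 and Tyms-ps), Pcna-ps2 alone had reads, 4 in replicate 2 and 2 in replicate 1.

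Smaller isoform classes recurred in both libraries. Tyms had 6 and 3 reads in replicates 2 and 1 of a new combination of known sites, with an acceptor 10 bases upstream of that of Tyms-201. Hmgb2 had a second new form of 4 exons with 3 reads in each library. The leading model of Racgap1, Racgap1-201, held 59.4% of 32 spliced full-chain reads in replicate 2 and 75.0% of 28 in replicate 1.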
